A study of Mus musculus with 96 samples.

Results

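Immediate early genes are genes that a cell transcribes within minutes of a stimulus from proteins it already holds, and their RNA is short-lived. In the brain they are widely used as markers of recently active neurons. Calcium and growth factor signals reach them through kinases that act on the factors CREB, SRF and ELK1, which bind the cyclic AMP response element (CRE) and the CArG box of the serum response element. Waking and sleep loss are known to raise several of them in the cortex, and in liver they respond to feeding, injury and growth signals. Here 10 of them were followed across 4 mouse organs after sleep deprivation. They were chosen by name from the 54833 features counted, with earlier results of these data known. They comprise the AP-1 subunits Fos, Fosb and Junb, the zinc finger factors Egr1, Egr2 and Egr3, the neuronal effector Arc, the neuronal factor Npas4, the orphan nuclear receptor Nr4a1, and Dusp1, a phosphatase that switches MAP kinases off.

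The mice were wild-type C57BL/6 males, 6 to 8 weeks old. The sleep-deprived animals (SD) had been made to walk in a slowly turning drum for 10 h of their resting phase, with food and water, and the control animals (CON) had been left alone. Forebrain, cerebellum, liver and kidney were collected at CT4, CT8, CT12, CT16, CT20 and CT24 (CT, circadian time in h), and 2 libraries per organ, condition and time made up 12 CON and 12 SD libraries per organ. Forced walking accompanied the loss of sleep in every SD animal, and these cannot be told apart. The mice were housed in a light and dark cycle, and the paper describes collection in constant darkness. The drum ran from 6 AM to 4 PM and sampling at the 6 times came after it. No clock time is given for a CT, so no interval since the drum is assigned to a sample here. Levels are in CPM, the counts of a gene per 1 M gene counts of its library, and depth lay between 24.8 and 58.5 M counts. Nothing in the labels ties the libraries of a group to separate animals beyond a replicate number, so p-values measure the spread between libraries. A bulk sample cannot tell fewer cells of a type from less RNA per cell. The summed markers of each organ were highest in the organ labelled. The 5 hepatocyte genes came to 80489 CPM or more in liver and at most 664.6 elsewhere. The 5 kidney tubule genes came to 14797 or more in kidney and at most 7.55 elsewhere. The 5 cerebellar neuron genes came to 1523 or more in cerebellum and at most 126.6 elsewhere. The 5 forebrain neuron genes spread widely, from 116.7 to 676.4 CPM in CON and 133.1 to 764.3 in SD forebrain. They reached 92.9 CPM in kidney. Oligodendrocyte genes ran from 674.5 to 3932 CPM in CON and 1144 to 4698 in SD forebrain. The cause of this spread and its part in the forebrain results were not tested.

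The promoters of Egr2, Nr4a1, Fos and Dusp1 are shown first, because the results below turn on these genes in liver and cerebellum and because CREB and SRF act at sites of this kind. RefSeq promoters of GRCm38.p6 (250 bases before to 50 after a start site) matched 7 members, all but Egr1, Egr3 and Arc. All 7 held TGACG, the CRE core, on either strand, against 23.0% of 27025 genes. Of the 7, Egr2 was the one with both a CArG box and a CRE core inside this window. Sites further away were not searched, so a window without a CArG box does not mean a gene without one. The sequences of Nr4a1, Fos and Dusp1 were added after their values were seen. Each line gives the 250 bases before a start site, 5′ to 3′ along the gene, with CRE cores and CArG boxes in capitals.
Egr2: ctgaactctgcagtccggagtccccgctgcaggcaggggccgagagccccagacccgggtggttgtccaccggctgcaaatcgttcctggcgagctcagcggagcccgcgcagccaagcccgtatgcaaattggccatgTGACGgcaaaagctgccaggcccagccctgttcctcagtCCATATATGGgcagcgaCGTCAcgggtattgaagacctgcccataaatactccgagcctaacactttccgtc
Nr4a1: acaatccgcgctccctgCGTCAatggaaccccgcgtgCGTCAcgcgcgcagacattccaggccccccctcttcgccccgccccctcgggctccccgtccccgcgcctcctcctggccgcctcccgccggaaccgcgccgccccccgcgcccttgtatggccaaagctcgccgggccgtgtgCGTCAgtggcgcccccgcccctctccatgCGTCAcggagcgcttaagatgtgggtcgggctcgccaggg
Fos: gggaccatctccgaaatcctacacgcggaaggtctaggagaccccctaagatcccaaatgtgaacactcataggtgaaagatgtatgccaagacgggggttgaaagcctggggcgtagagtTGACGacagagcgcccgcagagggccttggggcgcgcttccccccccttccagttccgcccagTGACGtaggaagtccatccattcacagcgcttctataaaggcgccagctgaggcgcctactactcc
Dusp1: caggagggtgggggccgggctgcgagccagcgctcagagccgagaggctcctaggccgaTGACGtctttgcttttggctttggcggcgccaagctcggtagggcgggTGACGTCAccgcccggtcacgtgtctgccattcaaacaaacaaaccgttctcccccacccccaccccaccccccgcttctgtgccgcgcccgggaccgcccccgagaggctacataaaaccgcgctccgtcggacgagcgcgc

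The Egr2 window (chr10:67537619-67537868, plus strand) is upstream of 1 of 5 annotated Egr2 starts and holds the CArG box CCATATATGG between a pair of CRE cores. A CArG box occurred near 1.81% of genes. The Nr4a1 window (chr15:101266596-101266845, plus strand) holds 4 cores, all reading TGACG on the opposite strand, and an EGR site, GCGGGGGCG, which 3.31% of genes held and Fosb also had. The Fos window (chr12:85473640-85473889, plus strand) holds 2 cores ahead of the sequence TATAAA, which 15.7% of genes held. The Dusp1 window (chr17:26508473-26508722, minus strand) holds a complete CRE, TGACGTCA, found near 2.03% of genes, whose letters include a core on each strand, and a further core upstream. A match describes letters in a window and is not a measurement of binding.

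In undisturbed animals 7 of the 9 members tested in both brain regions were higher in the forebrain than in the cerebellum, with Fos and Dusp1 as the exceptions. Of all 26536 genes, 39.3% were higher there and 70.8% differed. In the CON forebrain, per kilobase of exon, Arc averaged 51.8 ± 37.4 CPM per kb (SD, n = 12), Egr1 44.5, Nr4a1 22.6, Dusp1 11.8, Fos 9.79, Junb 6.78, Npas4 5.37, Egr2 2.63 and Fosb 1.78. Arc and Egr1 stood at the top, but neighbours in this order overlapped in their libraries. In the CON liver the order was another, led by Dusp1 at 20.1 CPM per kb, then Egr1 at 7.66 and Junb at 3.53, with Fos and Nr4a1 near 1.05 and 1.03, and Egr2, Arc and Fosb below these. Arc, whose RNA is carried to active synapses, had the widest range between organs of the members tested in all of them, from a median of 129 CPM in the CON forebrain to 14.001 in the cerebellum, 2.62 in the kidney and 0.284 in the liver. Npas4, a factor made in neurons on calcium entry, had a median of 18.3 CPM in the forebrain and 3.37 in the cerebellum, against 30 and 6 counts in all 12 CON libraries of kidney and liver.

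Egr3, a zinc finger factor related to Egr1, was close to absent from the count tables. It had 11 counts over all 24 forebrain libraries, 1 in the cerebellum, 2 in the kidney and none in the liver, where a floor of 3 counts over the organ allows up to 0.00343 CPM. It passed the low-count filter in no organ, so no difference is given for it, and whether the alignment and counting could capture its transcript was not tested. Npas4 passed in the 2 brain regions only, which leaves 9 members tested there and 8 in liver and kidney.

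Levels between organs were tested over the CON libraries with edgeR's quasi-likelihood test, adjusted over 26536 genes, of which most differ between any pair of organs. Npas4 entered this fit through the brain libraries alone, and since its liver and kidney levels rest on 6 and 30 counts it is left out of the counts against these organs. Against the liver, 8 of 8 members differed in the forebrain, where 85.6% of all genes did. Of these, 7 were higher (47.7% of all genes were), from Junb at 0.43 (SE 0.16) to Arc at 8.31 (SE 0.30) on the log2 scale, and Dusp1 was lower by a log2 difference of -1.35 (SE 0.21). Without replicate 2 at CT16 of every organ Junb was at 0.25 and no longer passed (adjusted p = 0.136). Scaling by library size alone moved the median of all genes for this pair from 0.29 to 0.83. The sizes of these differences, those of Junb and Dusp1 included, therefore depend on the scaling. Against the kidney, 7 of 8 were higher in the forebrain (44.8% of all genes were higher and 84.8% differed), while Dusp1 differed by -0.37 with an adjusted p of 0.101. Against the cerebellum, 7 of 9 were higher in the forebrain (39.3% of all genes were higher and 70.8% differed), with Fos at 0.57 (adjusted p = 0.104) and Dusp1 at -0.17 (adjusted p = 0.492) as the exceptions. The cerebellum thus held Fos and Dusp1 at levels not shown to differ from the forebrain, although Egr2 was lower there by 4.83, Fosb by 3.88 and Junb by 3.57.

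The cerebellum and the liver differed in 7 of 8 members (86.4% of all genes differed). Arc, Nr4a1 and Fos were higher in the cerebellum, and Junb, Egr2, Dusp1 and Egr1 were higher in the liver, although scaling by library size alone took Egr1 from -0.74 to -0.01 and made Fosb differ at 1.06. Cerebellum and kidney differed in 6 of 8 (85.9% of all genes), 4 higher in the cerebellum, and Junb and Egr2 lower. Liver and kidney differed in 5 of 8 (68.7% of all genes), with Egr1, Dusp1, Egr2 and Junb higher in liver and Arc higher in kidney by 2.74 (SE 0.33). Library sizes alone moved the median of all genes between cerebellum and liver from 0.35 to 1.03 and between liver and kidney from -0.09 to -0.56, so that Egr2 no longer differed between liver and kidney (0.45) and Nr4a1 did (-0.80). The plot of CON levels by organ shows these patterns per library.

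**Figure D1:**
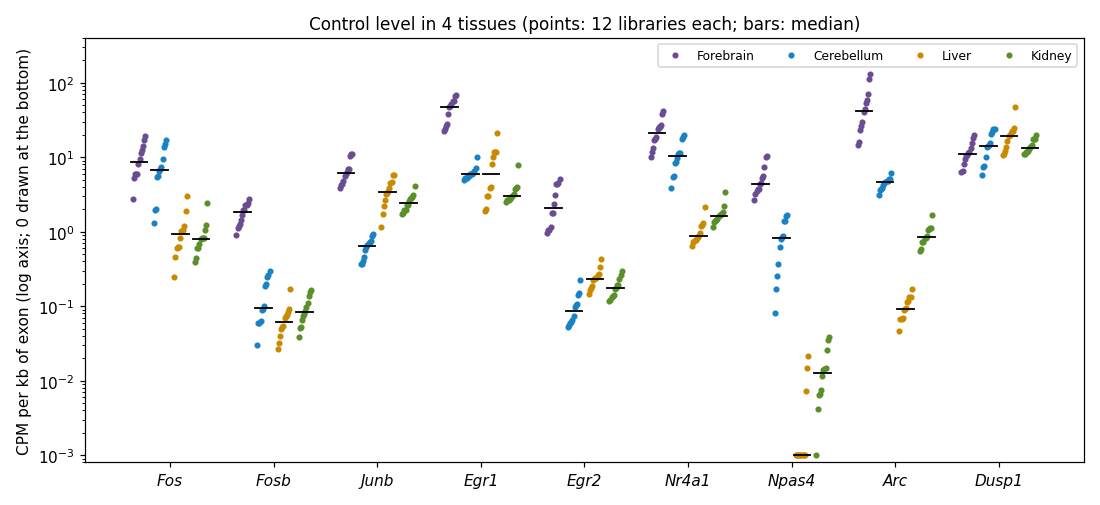
Level of each member in the CON libraries, in CPM per kb of exon on a log axis, with 1 point per library (12 per organ) and a bar at the median; libraries at 0 are drawn at the bottom. The forebrain points lie highest for Arc, Egr1, Egr2, Fosb and Npas4, while the points of Dusp1 overlap between all 4 organs, with medians from 11.1 in forebrain to 19.5 in liver.

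In the liver Nr4a1, Fos, Arc and Egr2 fell after sleep deprivation, which makes 4 of the 8 members tested, where 8.80% of 19708 genes fell and 18.2% changed in either direction. The members had been chosen with earlier results of these data known, so these shares are a description and no independent test. All 8 members had a negative log2 fold change averaged over time, with a median of -0.67, against 48.9% of all genes and a median of 0.01. By circadian time the member median was -1.38 at CT4, -0.81 at CT8, -0.09 at CT12, -0.47 at CT16, -0.72 at CT20 and -0.22 at CT24.

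Nr4a1, an orphan nuclear receptor that also regulates gluconeogenic genes in liver, had the smallest adjusted p of the 8. Its CON libraries ran from 2.25 through a median of 3.11 to 7.48 CPM and its SD libraries from 0.644 through 2.02 to 3.03 CPM. The groups overlapped between 2.25 and 3.03, but at 5 of 6 times both SD libraries were below both CON libraries, with CT24 as the exception. At CT4 CON had 2.68 and 3.02 CPM and SD 1.32 and 0.644. At CT8 CON had 3.37 and 7.48 and SD 2.19 and 2.74. The averaged log2 fold change was -0.70 (SE 0.16, adjusted p = 0.00285), and it lay between -0.76 and -0.60 with each library left out in turn.

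Fos, an inducible partner in the AP-1 dimer, had CON libraries from 0.576 through a median of 2.16 to 7.09 CPM and SD libraries from 0.620 through 1.07 to 2.13. CON replicate 1 at CT20 was the lowest of all 24, and otherwise the lower values were mostly SD. At CT4 the CON libraries were far apart, 4.49 and 1.08 CPM, and both SD libraries, 0.911 and 0.702, were below them. At CT24 CON had 1.45 and 1.42 CPM and SD 0.708 and 0.620. Fos fell by 0.91 on the log2 scale (SE 0.26, adjusted p = 0.0160), and passed the test with each library left out in turn.

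Egr2, a zinc finger factor that is also used in immune cells, had CON libraries from 0.491 through 0.793 to 1.47 CPM and SD libraries from 0.114 through 0.355 to 1.09. The direction was not the same at every time, since at CT12 SD was the higher group, with 1.09 and 0.780 CPM against 0.804 and 0.914, and at CT8 it was 0.224 and 0.292 against 0.642 and 1.47. Egr2 averaged -0.78 (SE 0.27, adjusted p = 0.0433). Arc was scarce in liver, with 131 counts in the 12 CON libraries and 60 in the 12 SD libraries. It ran from 0.143 through 0.284 to 0.524 CPM in CON and from 0.0293 through 0.138 to 0.284 in SD, and averaged -0.998 (SE 0.33, adjusted p = 0.0349). Both calls depended on single libraries, being lost in 14 of 24 fits for Egr2 and 12 of 24 for Arc when single libraries were left out, while the values stayed between -0.93 and -0.65 and between -1.14 and -0.88.

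The remaining 4 members did not pass. Dusp1, the most abundant member in liver, had CON libraries from 35.2 through 64.6 to 155 CPM and SD libraries from 21.01 through 32.9 to 59.1. Its mean was lower in SD at 6 of 6 times and it averaged -0.64 (SE 0.23, adjusted p = 0.0515), a value that passed with DESeq2 (adjusted p = 0.0499) and with library sizes alone (adjusted p = 0.0118). Egr1, an early zinc finger factor, ran from 8.39 through 26.8 to 93.7 CPM in CON and from 5.81 through 14.6 to 62.1 in SD, with broad overlap, and averaged -0.49 (SE 0.27, adjusted p = 0.235). Junb, a JUN-family partner in AP-1, averaged -0.36 (SE 0.20, adjusted p = 0.224). Fosb, a close relative of Fos, averaged -0.09 (SE 0.24, adjusted p = 0.844) around a median of 0.382 CPM in CON and 0.372 in SD.

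**Figure D2:**
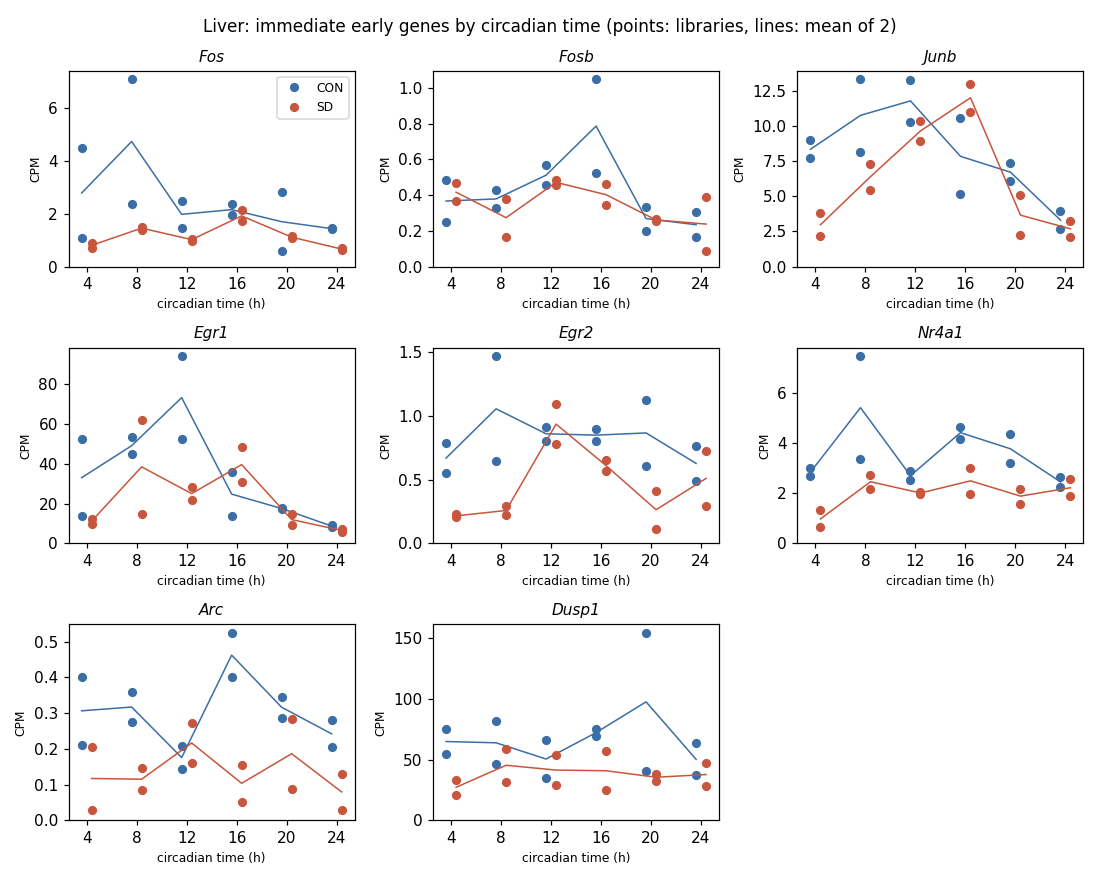
CPM of the 8 members tested in liver against circadian time in h, with 1 point per library and lines through the mean of 2, CON in blue and SD in red. The SD points of Nr4a1 lie below the CON points at 5 of 6 times, and CON replicate 2 at CT8 is the highest point for Fos (7.09), Egr2 (1.47) and Nr4a1 (7.48).

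Library CON replicate 2 at CT8 was the highest in the liver, with 7 of 8 members among their top 4 libraries. Without it Nr4a1 averaged -0.60 (adjusted p = 0.00685), Fos -0.74 (adjusted p = 0.0394), Egr2 -0.65 (adjusted p = 0.0855) and Arc -0.96 (adjusted p = 0.0635). With library sizes alone in place of TMM scaling, 3763 genes fell and 358 rose, against 1735 and 1857 in the main fit, and the median of all genes moved from 0.01 to -0.13. The 4 members fell under both scalings, and with library sizes alone Nr4a1 was at -0.84, Fos at -1.05, Egr2 at -0.93 and Arc at -1.13.

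Leukocyte and macrophage markers were lower in the SD livers as well. The summed level of 5 leukocyte genes (Ptprc, Cd3e, Cd79a, Ms4a1 and Coro1a) was 89.2 to 168.6 CPM in CON and 40.5 to 79.7 in SD livers, without overlap, and 5 of 5 fell. The macrophage list, with 4 of 5 genes tested, summed to 564.8 to 1086.4 CPM in CON and 411.9 to 664.0 in SD, and 4 of 4 fell. Erythroid genes summed to 130.6 to 303.1 CPM in CON and 139.8 to 324.4 in SD, with 0 of 3 tested genes called. Endothelial genes summed to 367.9 to 465.0 and 317.5 to 443.8 CPM with 1 of 5 lower, and hepatocyte genes to 80489 to 106063 and 84267 to 104965 CPM with 4 of 5 higher. When the log2 sum of a list was added to the fit, a step chosen after seeing the data, no member passed with any of the 3 lists. With leukocytes Nr4a1 became 0.27 and Egr2 0.34, with Fos at -0.10 and Arc at -0.54, and 0 of 19708 genes passed (the sums do not overlap, so condition and leukocyte level cannot be told apart). With macrophages Nr4a1 was -0.24, Fos -0.64, Egr2 -0.19 and Arc -0.50 (287 genes passed), and with endothelial cells -0.33, -0.33, -0.46 and -0.78 (22 passed). The other 4 members did not all move towards 0. With leukocytes, macrophages and endothelial cells in turn, Egr1 was at -1.15, -1.14 and -0.70 and Dusp1 at -0.69, -0.37 and -1.09. Fosb was at -0.37, -0.18 and -0.17 and Junb at 0.13, -0.03 and -0.17.

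At single times no liver member passed, and of all genes 0.0101% did at CT4, 0.406% at CT8, 0.238% at CT24 and 0 at the other times. Over the 6 times together Nr4a1 passed (adjusted p = 0.0399, 3.56% of all genes), and lost the call in 18 of 24 fits with a library left out. It also lost the call when a replicate block was added to the fit. The SD effect was not shown to differ between times for any member (smallest unadjusted p = 0.0164, Junb, with 0 of 19708 genes called and 884 at an unadjusted p under 0.05). Junb was 1.36 lower on the log2 scale in SD at CT4 and 0.79 higher at CT16, from 7.69 and 8.97 against 3.78 and 2.17 CPM to 10.5 and 5.12 against 10.99 and 12.99.

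Egr1 and Junb changed with time of day in the liver of both groups, 2 of 8 members in CON (14.9% of all genes) and 2 of 8 in SD (12.8%). Egr1 in CON was highest at CT12, with 93.7 and 52.4 CPM, and lowest at CT24, with 9.05 and 8.39 (adjusted p = 0.0175). In SD its highest mean was at CT16, with 30.8 and 48.2, and its lowest at CT24, with 7.20 and 5.81 (adjusted p = 0.0270). Junb in CON went from 13.3 and 10.3 CPM at CT12 to 2.64 and 3.97 at CT24 (adjusted p = 0.0357), and in SD from 10.99 and 12.99 at CT16 to 3.27 and 2.09 at CT24 (adjusted p = 0.00342). With single libraries left out, the call was lost in 2 of 24 fits for Egr1 in CON, 3 of 24 for Egr1 in SD and 6 of 24 for Junb in CON (adjusted p up to 0.167), and in none for Junb in SD. Both genes had a maximum at CT12 in CON and CT16 in SD, a shift that the test of the SD effect between times did not show at the adjusted threshold.

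In the forebrain no member differed between SD and CON averaged over time, with 0 of 9 called where 0.0303% of 23078 genes were. At an unadjusted p under 0.05 there were also 0 members, and 1479 genes. Arc had CON libraries from 45.3 through a median of 129 to 405 CPM and SD libraries from 51.7 through 181 to 383. The groups overlapped almost fully, and the log2 fold change was 0.31 (SE 0.28, adjusted p = 0.835). Nr4a1 averaged 0.29 (SE 0.18), Egr2 0.26 (SE 0.29), Dusp1 0.16 (SE 0.14), Junb 0.08 (SE 0.17), Fos 0.07 (SE 0.23), Egr1 0.06 (SE 0.18) and Fosb 0.02 (SE 0.14). Npas4 had the sole negative value, -0.20 (SE 0.16), and all adjusted p-values were 0.789 or more.

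Between times the SD effect in the forebrain was not shown to differ (0 of 9 members and 0 of 23078 genes called, with 1 member and 2604 genes at an unadjusted p under 0.05). The member median was 0.20 at CT4, 0.38 at CT8, 0.63 at CT12 with 9 of 9 positive, -0.85 at CT16 with 9 of 9 negative, 0.34 at CT20 and -0.04 at CT24, against at most 0.01 in size for the median of all genes. No member passed at any single time, and of all genes 0.00433% did at CT16, 2.28% at CT20 and 0 at the other times. Egr2 was the extreme in both directions. At CT12 CON had 3.56 and 3.30 CPM and SD 11.3 and 10.2 (1.67, unadjusted p = 0.00841). At CT16 CON had 3.91 and 14.7 and SD 2.59 and 3.59 (-1.66, unadjusted p = 0.00908). The CON replicates disagreed in other genes too, as Arc had 90.9 and 217 CPM at CT16, 45.3 and 163 at CT8 and 48.5 and 135 at CT20. Averaged over the 9 members, CON replicates 1 and 2 deviated from the mean of the organ by -0.55 and 0.38 log2 units at CT16, by -0.68 and 0.47 at CT8 and by -0.996 and 0.05 at CT20.

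**Figure D3:**
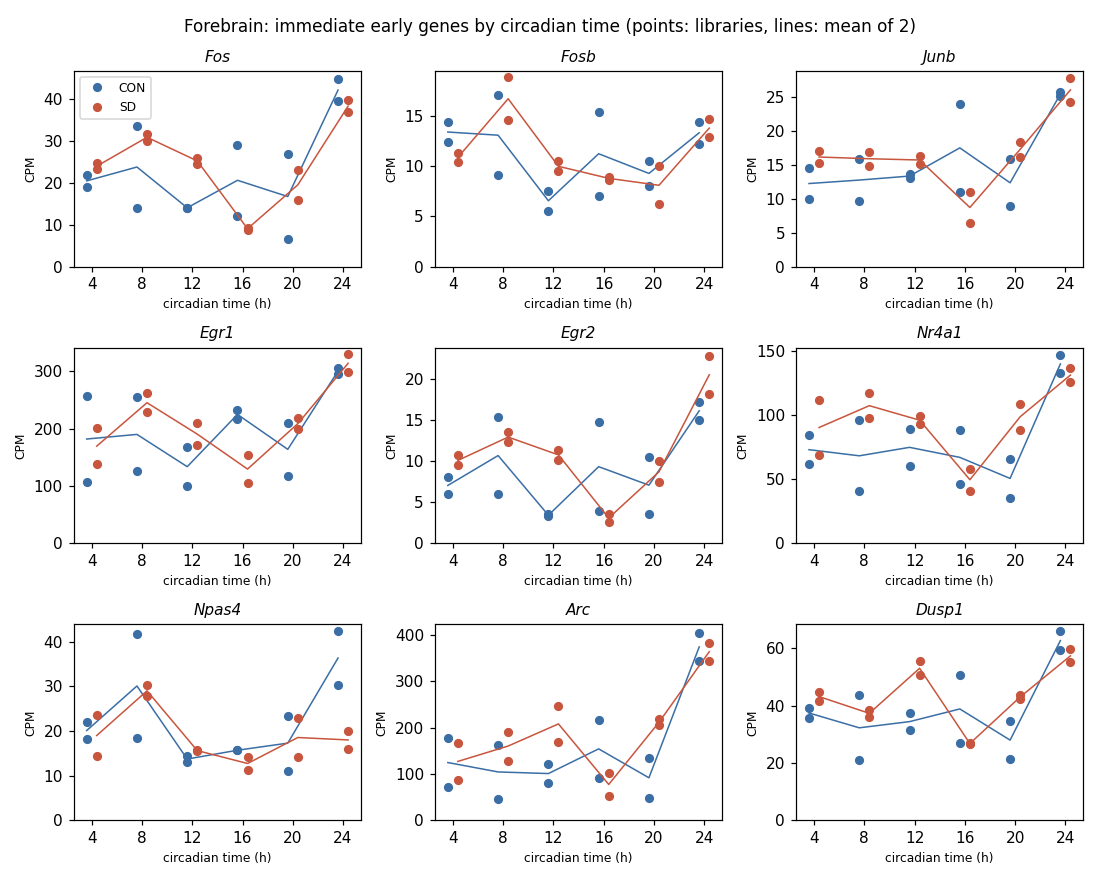
CPM of 9 members in forebrain against circadian time in h, with 1 point per library and lines through the mean of 2, CON in blue and SD in red. Both groups are highest at CT24 for most genes, such as Arc at 343 to 405 CPM, and the lines of most genes cross between CT12 and CT16.

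The highest forebrain libraries were those of CT24, in both groups alike. There Arc had 343 and 405 CPM in CON against 345 and 383 in SD, and Fos 44.9 and 39.6 in CON and 39.9 and 37.0 in SD. Of the 9 members, 7 or 8 had each of these 4 libraries among their top 4. Fosb was not highest at CT24 in either group, with its highest mean at CT4 in CON (13.4 CPM) and at CT8 in SD (16.7 CPM). Npas4 at CT24 had 42.3 and 30.4 CPM in CON against 20.1 and 15.9 in SD (-1.01), and its highest SD mean was at CT8. Time of day gave 6 of 9 members in CON and 5 of 9 in SD an unadjusted p under 0.05, but 0 passed the adjusted threshold in either (0.624% and 0 of all genes). Of all 23078 genes, 4889 in CON and 2073 in SD had an unadjusted p below that level.

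In the cerebellum no member passed averaged over time (0 of 9, as 0 of 22218 genes passed, with 1 member and 757 genes at an unadjusted p under 0.05). Fos ran from 3.06 through 15.7 to 40.5 CPM in CON and from 2.75 through 27.5 to 42.6 in SD, a log2 fold change of 0.42 (SE 0.37, adjusted p = 0.907). Npas4 averaged 0.36 (SE 0.36), Dusp1 0.35 (SE 0.20) and Nr4a1 0.35 (SE 0.21), with Fosb, Egr2 and Junb between 0.16 and 0.00. Arc at -0.16 (SE 0.10) and Egr1 at -0.23 (SE 0.10) were negative. Fos, Npas4, Nr4a1 and Dusp1 went up and down together from library to library. At CT20, for example, CON had 3.06 and 15.3 CPM of Fos and SD 24.1 and 28.9, and CON had 13.7 and 29.9 CPM of Nr4a1 and SD 56.7 and 54.4. At CT16 Fos was 4.65 and 17.5 in CON and 2.75 and 9.30 in SD.

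Egr1 at CT8 was the single cerebellar call, at -0.80 (SE 0.23, adjusted p = 0.0393), at a time when 10.3% of all genes were called and 9.73% were called lower. CON replicate 1 had 44.9 CPM against 29.3 in replicate 2 and 21.1 and 23.9 in SD. The call was lost in 21 of 24 fits with a library left out, with values from -1.10 to -0.37. In CON replicate 1 the counts of antisense genes came to 22.2% of those of the coding genes they overlap, against at most 10.5% in any other library, and without it Egr1 was at -0.37 (adjusted p = 0.998). Nr4a1 was the sole member to change with time of day in the CON cerebellum (adjusted p = 0.0450, 10.3% of all genes), from 60.7 and 64.8 CPM at CT24 to 13.7 and 29.9 at CT20, and lost the call in 18 of 24 fits with a library left out. In the SD cerebellum 0 of 9 changed with time of day (0.0450% of all genes). CON replicate 1 at CT8 was kept in these fits, and its part in either share of 10.3% was not separated.

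In the kidney 0 of 8 members passed averaged over time, where 2.30% of 21528 genes did. All kidney values rest on sample titles that the listed characteristics contradict for 20 of 24 libraries. Fos, as in liver, had mostly lower SD values, from 0.916 through 1.899 to 5.71 CPM in CON and from 0.808 through 1.07 to 2.23 in SD, with both SD libraries below both CON libraries at 4 of 6 times. Its log2 fold change was -0.63 (SE 0.22, unadjusted p = 0.00923, adjusted p = 0.179). Egr1 averaged -0.31 (SE 0.14, adjusted p = 0.364), Junb -0.17, Nr4a1 -0.13, Egr2 -0.08 and Dusp1 -0.07, while Arc was at 0.27 (SE 0.19, adjusted p = 0.579). At CT8 Fos had 2.91 and 5.71 CPM in CON against 0.904 and 1.47 in SD (-1.91, unadjusted p = 0.000441, adjusted p = 0.184). CON replicate 2 at that time had 7 of 8 members among their top 4 libraries. No member passed at a single time, and of all genes 0.00465% did at CT4 and CT16, 0.00929% at CT8, 0.0372% at CT12, 0.0139% at CT20 and 0.302% at CT24. Over the 6 times together 0 of 8 passed (0.725% of all genes).

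Fosb in the kidney was set apart by 1 library. SD replicate 1 at CT12 had 5.67 CPM and replicate 2 had 0.444, while the other 22 libraries lay between 0.245 and 1.03. Fosb and Dusp1 changed with time of day in the SD kidney (adjusted p = 0.0309 and 0.0447, 2 of 8 members, 3.79% of all genes). Without that library Fosb had an adjusted p of 0.659. Dusp1, which in SD went from 40.1 and 37.9 CPM at CT12 to 58.4 and 54.3 at CT16 and 68.9 and 46.2 at CT20, lost the call in 16 of 24 fits. In the CON kidney 0 of 8 members passed for time of day (3.47% of all genes). Leukocyte genes in the kidney summed to 47.2 to 82.7 CPM in CON and 31.0 to 47.8 in SD, with 2 of 5 lower. Macrophage genes summed to 13.9 to 23.5 CPM in CON and 10.8 to 14.4 in SD, and both tested genes were lower, Cd5l at -1.85 and Adgre1 at -0.42. Cd5l was scarce in the kidney, with a mean of 0.173 CPM, and Adgre1, with a mean of 14.1, made up most of the sum. The part of either list in the Fos values was not tested.

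**Figure D4:**
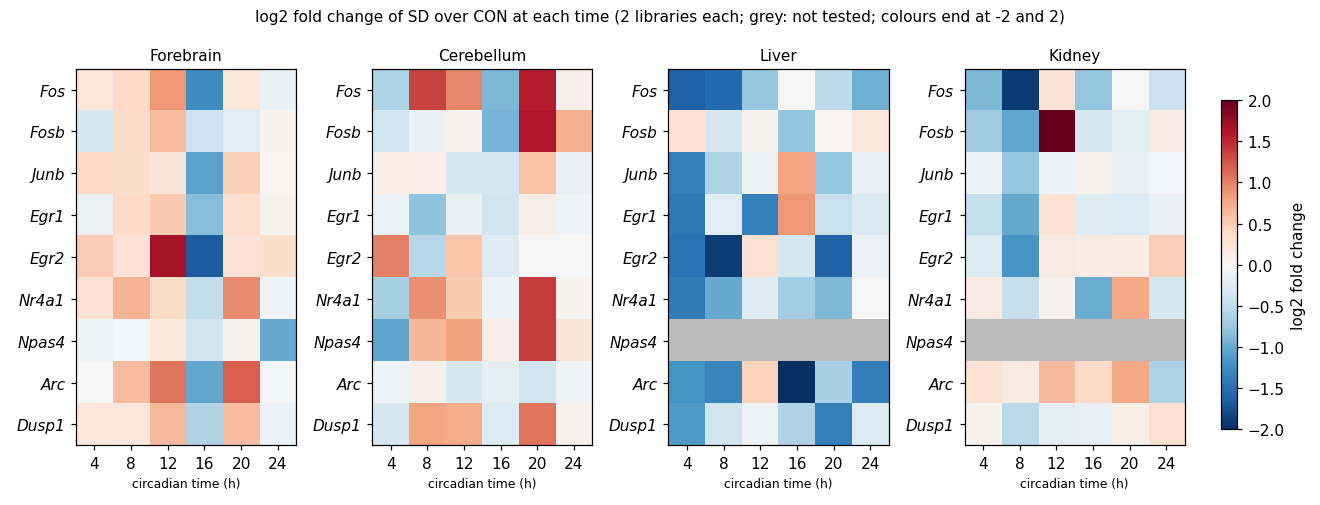
Log2 fold change of SD over CON for each member (rows) at each circadian time in h (columns) in 4 organs, from 2 libraries a group, with red for higher and blue for lower in SD and grey where a gene was not tested. The liver panel is mostly blue, the 9 forebrain members tested are all positive at CT12 and all negative at CT16, although the effect was not shown to differ between times, and Egr1 in cerebellum at CT8 (-0.80) is the one cell that passed the test.

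The comparison of brain with liver was made as a test of the difference between SD effects, with libraries of both organs in 1 fit. That fit treated libraries of different organs as independent, and the labels do not say whether libraries of the same number came from the same animal. Over genes, the difference between replicates in liver correlated above 0.1 with that in forebrain in 1 of 12 groups. For cerebellum this held in 1 of 12 and for kidney in 6 of 12 (r up to 0.46). Nr4a1 was the member whose effect differed, by 0.96 (SE 0.25, adjusted p = 0.0142) between forebrain and liver, where 6.90% of 25125 genes differed, and by 1.05 (SE 0.27, adjusted p = 0.0290) between cerebellum and liver, where 2.47% of 24777 did. Its own SD effect was 0.29 and 0.35 in the brain regions, neither past the threshold, and it fell in the liver. The forebrain difference was called with each of 48 libraries left out, and the cerebellar one was lost without CON replicate 2 at CT8 of the liver (0.96, adjusted p = 0.0551). Arc differed between kidney and liver, by 1.26 (SE 0.36, adjusted p = 0.0298, 6.49% of 22870 genes). It lost the call without SD replicate 2 at CT8 of the kidney (1.16, adjusted p = 0.0526) or SD replicate 2 at CT16 of the liver (1.14, adjusted p = 0.0620). This call also rests on kidney titles that conflict with the listed characteristics for most libraries.

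Most other members had a difference of the same sign without passing. For forebrain against liver, Arc was at 1.28 (adjusted p = 0.257), Egr2 at 0.98 (adjusted p = 0.156), Fos at 0.95 (adjusted p = 0.106), Dusp1 at 0.78 (adjusted p = 0.0870), Egr1 at 0.53 and Junb at 0.42. For cerebellum against liver, Fos was at 1.33 (adjusted p = 0.142), Dusp1 at 0.98 (adjusted p = 0.0977), Egr2 at 0.89 and Arc at 0.83. Over the 8 members tested in each organ, the median of the effect in forebrain, cerebellum and kidney minus that in liver was 0.86, 0.86 and 0.43, with medians of all genes between 0.00 and 0.02, and library sizes alone moved the latter to 0.15 and 0.13 for the brain regions. These comparisons share the liver libraries, whose own values are those given above.

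**Figure D5:**
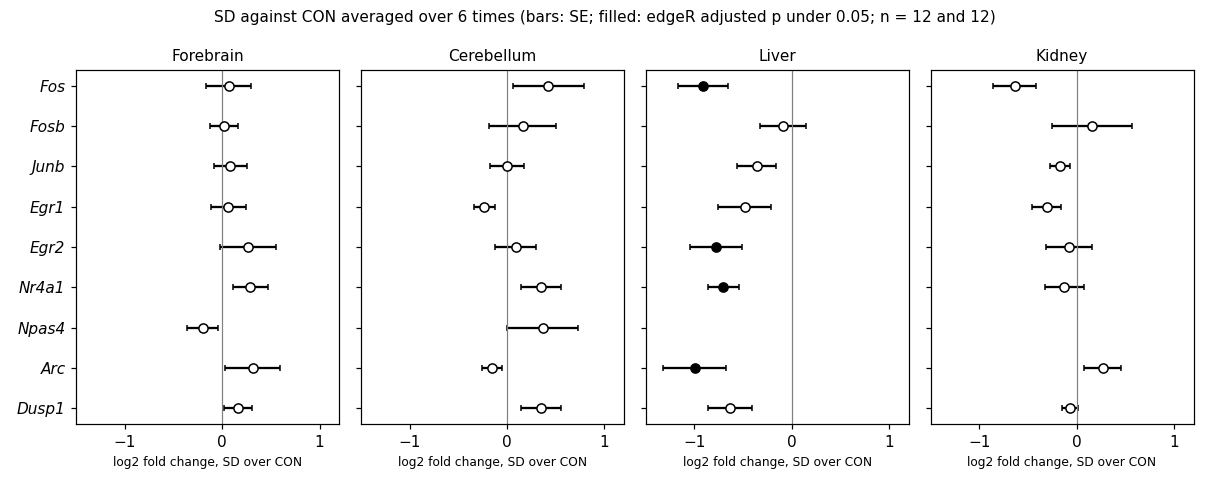
Log2 fold change of SD over CON averaged over 6 times for each member, with bars of 1 SE and filled points where the edgeR adjusted p was under 0.05 (12 CON and 12 SD libraries per organ). The 4 filled points, Fos, Egr2, Nr4a1 and Arc, are all in the liver, between -0.70 and -0.998.

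Other genes of the same response were taken from lists by role. In the liver 3 of 19 further immediate early transcription factors were called, all lower, beside 18.2% of all liver genes called and 8.80% lower. The list median was -0.09, and the called genes held the stress-induced factor Atf3 at -0.70 (SE 0.14, adjusted p = 0.00146) and Nr4a3, a relative of Nr4a1, at -0.80 (SE 0.23, adjusted p = 0.0186). Of the activating pathway 7 of 17 were called, 2 higher and 5 lower (median -0.02), including Camk4, a calcium-dependent kinase, at -0.82 (SE 0.21, adjusted p = 0.00909). Of the feedback and turnover genes 4 of 14 were called, 1 higher and 3 lower (median -0.04). Zfp36, which promotes the decay of short-lived messages, was at -0.43 (SE 0.15, adjusted p = 0.0482), Dusp6, a phosphatase for ERK, at -0.41 (SE 0.10, adjusted p = 0.00408), and Spry4, an inhibitor of growth factor signalling, at 0.35 (SE 0.10, adjusted p = 0.0205).

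Of the effector targets 3 of 12 were called in the liver (18.2% of all genes), 1 higher and 2 lower (median -0.17), and these held Ptgs2, the inducible cyclooxygenase, at -1.59 (SE 0.43, adjusted p = 0.0116) and Rgs2, a brake on G protein signalling, at -0.76 (SE 0.09, adjusted p = 8.22e-06). In the forebrain, cerebellum and kidney, 0 genes of the 4 lists were called averaged over time, where 0.0303%, 0 and 2.30% of all genes were.

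The genes most like the members were sought by the correlation, over the 24 libraries of an organ, of a gene with the mean log2 level of the members. In the forebrain these were Ier2 (r = 0.93), 1700016P03Rik (0.86), Egr4 (0.85), 4933427E11Rik (0.84) and Dnajb5 (0.83). In the cerebellum they were Nr4a3 (0.95), Nr4a2 (0.89), Irf2bp2 (0.85), Ier2 (0.85) and 1700016P03Rik (0.82). In the liver they were Slc25a22, Tmem132a, Lsp1, Gm38399 and Il1rn (0.84 to 0.85), and in the kidney Dusp5, Gm15964, Runx1, Dclk1 and B3gnt3 (0.75 to 0.76). Ier2, Egr4, Nr4a2 and Nr4a3 are known as immediate early genes themselves. The points of each correlation share libraries, their depth and the condition and time of the sample. Among the members themselves, Fos, Npas4, Nr4a1 and Dusp1 in the cerebellum had r of 0.93 to 0.95 with the member mean, Arc 0.20 and Egr1 -0.11. Each member is part of that mean, which raises its r, and Fosb and Egr2 were below 1 CPM on average there and have no value.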

How the data were processed

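Total RNA libraries depleted of ribosomal RNA were sequenced from 4 tissues. The authors deposited unnormalised counts of reads per gene, obtained with Trim Galore, HISAT2 on GRCm38, SAMtools and strand-specific featureCounts. They removed reads mapping to several places, which can lower the counts of genes that have close copies. Junb and Dusp1 overlap genes on the opposite strand (Prdx2, Ergic1 and Gm8225). Of 54833 features, 5248 numbered loci without an Ensembl identifier held 0.2925% of the counts and stayed out of the tests. GENCODE M21 gave symbols, and all 10 members matched. The series table equalled the library file in 96 of 96 columns, and no libraries were identical.

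Groups came from the sample titles. For 20 of 24 kidney libraries the listed characteristics conflicted with the title, and the characteristics use another time scale (DD), 4 h earlier, so kidney values rest on the titles. Differences were tested per tissue with edgeR 4.0.16 in R 4.3.3 (TMM, filterByExpr, quasi-likelihood F-test, adjusted p under 0.05 by Benjamini-Hochberg over all genes), with condition plus time or a mean per group. SE was the log2 fold change over the square root of F. SD effects were compared between tissues by an interaction, and CON levels with time as a factor. Both fits treated libraries of different tissues as independent. Alternatives were library sizes alone, DESeq2 1.42.0 and its size factors, no low-count filter, mean CPM of at least 1, a replicate block and leaving out libraries. A liver fit with a marker sum as covariate was added after seeing the data. The pipeline was tested on simulated data. Tables and plots used Python 3.11.15, numpy 2.4.6, pandas 2.3.3 and matplotlib 3.10.9. At 24.8 to 58.5 M counts per library, 1 CPM is about 24.8 to 58.5 counts.

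The members and gene lists were chosen with earlier results of these data known. All members were named, with at most 8 pathway genes called per tissue, by size of the averaged change, and the 5 genes per tissue (mean of at least 1 CPM) with the highest Pearson r on log2(CPM + 0.5). Motifs were searched on both strands, the core TGACG lies within TGACGTCA, and a CArG box was CC, 6 letters of A or T, and GG.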

Additional observations from a re-analysis of the deposited data

Results flagged for a closer look

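The difference between tissues in the SD effect was past the threshold for 3 results. The log2 SD effect of Nr4a1 was 0.96 higher in forebrain than in liver and 1.05 higher in cerebellum than in liver, and that of Arc was 1.26 higher in kidney than in liver. Each was found by testing the interaction itself with edgeR, and the 3 comparisons share the liver libraries. In each, 1 of the 8 members tested in both organs was called, where 6.90%, 2.47% and 6.49% of all genes were. The Nr4a1 call for cerebellum and the Arc call were lost when certain single libraries were left out. The Arc value rests on 131 and 60 liver counts in the CON and SD libraries, and on kidney titles that conflict with the listed characteristics for most libraries.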

How the results depend on the processing

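Values here count members past the adjusted threshold (over single times, member and time pairs). Most alternative fits are given without the share of all genes called, so their counts describe the fits and are no result about the members. The averaged SD effect in liver had 4, and 0 with each of the 3 marker covariates. With leukocytes Nr4a1 was at 0.27 (SE 0.26, adjusted p = 0.978) and Egr2 at 0.34 (SE 0.54, adjusted p = 0.982) in edgeR. The leukocyte sums of CON and SD do not overlap, so that fit cannot separate leukocyte level from condition. Without the low-count filter, counts went in the forebrain from 0 to 5 (any time), 1 (single times), 2 (difference between times), 9 (time of day in CON) and 7 (in SD), in the cerebellum from 0 to 5, from 1 to 13, from 0 to 4, from 1 to 5 and from 0 to 5, in the liver from 1 to 6, from 0 to 14, from 0 to 3, from 2 to 5 and from 2 to 6, and in the kidney from 0 to 6, from 0 to 7, from 0 to 6, from 0 to 7 and from 2 to 4, with 2 in place of 0 for the averaged kidney effect, 8 in place of 5 for CON liver against kidney and 3 in place of 1 for each tissue against liver. In that fit the SE of Dusp1 in liver fell to 0.0615, and the cause was not tested. DESeq2 gave, at any time, 1 in forebrain, cerebellum and kidney and 4 in liver, at single times 2 in liver and kidney, 1 for the forebrain difference between times, 5 and 2 for time of day in CON and SD forebrain and 3 and 1 in kidney, and 3 and 2 for forebrain and cerebellum against liver. Library sizes alone gave 0 for cerebellum at single times and for its time of day in CON, 1 for time of day in SD kidney, and 3, 3 and 2 for forebrain, cerebellum and kidney against liver. In these comparisons against liver, 1803 of 25125, 1492 of 24777 and 2915 of 22870 genes were called with library sizes alone. DESeq2 size factors gave 1 for time of day in CON kidney, and a mean CPM of at least 1 gave 1 in CON and 1 in SD kidney.

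Replicate numbers were not taken to pair CON with SD libraries. Deviations of the same number correlated above 0.1 at 3 of 6 times in forebrain, cerebellum and liver and 4 of 6 in kidney. The r reached 0.53 in forebrain and 0.42 in kidney, and fell to -0.44 in cerebellum. This cannot exclude a batch shared by a number. In CON cerebellum replicate 2 was above replicate 1 at 6 of 6 times for Fos, Npas4 and Nr4a1, and at 2 of 6 for Egr1. In SD it was above at 4 of 6 for each of these 4. With a replicate block the counts were 2 for cerebellum at single times, 0 for liver at any time (Nr4a1 adjusted p = 0.0506), 1 for time of day in SD kidney, and 3 and 2 for forebrain and cerebellum against liver. The block moved no other count by over 1.5 times.

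With a library left out, the averaged effect gave 2 to 5 in liver and 0 to 0 in the other tissues. Any time gave 0 to 3 in cerebellum, 0 to 1 in kidney and liver and 0 to 0 in forebrain. Single times gave 0 to 5 in cerebellum, 0 to 1 in kidney and liver and 0 to 0 in forebrain, and the difference between times 0 to 3 in cerebellum and 0 to 0 elsewhere. The cerebellar counts of 3 to 5 came without CON replicate 2 at CT8. Time of day gave in CON 0 to 1 in forebrain, 0 to 4 in cerebellum, 0 to 3 in liver and 0 to 2 in kidney, and in SD 0 to 0, 0 to 0, 1 to 3 and 0 to 2. Against liver, forebrain gave 1 to 4 (4 without forebrain CON replicate 2 at CT16), and cerebellum and kidney 0 to 1. CON levels, Npas4 included, with 1 time and replicate left out of every tissue, gave 7 to 8 for forebrain against cerebellum, 8 to 9 against liver and kidney, 8 and 7 for cerebellum against liver and kidney, and 5 to 6 for liver against kidney.

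With 2 libraries a group, single-time effects had SE mostly above the averaged ones, and Arc in liver and Egr3 rest on few counts.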
